A study of Caenorhabditis elegans with 8 samples.

Results

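The genes described here encode the subunits of the 3 condensin complexes of *Caenorhabditis elegans* and SDC-2, the protein that brings one of them to the X chromosome. They were chosen by name, as the rows of the count table whose WormBase identifier maps to mix-1, smc-4, dpy-27, dpy-26, dpy-28, capg-1, kle-2, hcp-6, capg-2 and sdc-2, and all 10 were found among the 20392 genes of the table. The study sequenced RNA from intestines dissected from day 1 adults of the wild-type strain N2(Bristol). There were 4 libraries of fasted (starved) animals, kept in M9 buffer on a roller for 12 h before dissection, and 4 of fed (non-starved) animals, taken from plates with OP50 bacteria and dissected after a short wash in M9 buffer. Fasting, the stay in liquid and the added hours of adult life came together in this design and cannot be told apart. The labels give the same time of 12 h for both groups, and their growth text speaks of larvae and auxin plates; the groups are described here as the series' design text gives them. The 4 libraries of a group were named independent biological replicates, each a pool of dissected intestines, so the p-values measure the spread between such pools.

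Condensins are ring-shaped machines that extrude loops of DNA and compact chromosomes. Each holds a pair of SMC ATPases, a kleisin that closes the ring and a pair of HEAT-repeat proteins. Condensin I and condensin II act on all chromosomes and are best known from mitosis and meiosis, whereas condensin I-DC, which differs from condensin I only in its SMC4-type subunit, is loaded by SDC-2 and its partners onto both X chromosomes of hermaphrodites and lowers their expression. Intestinal nuclei of adults are polyploid and no longer divide.

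Total counts were 25310202 to 33846215 in the fasted libraries and 20964161 to 26372847 in the fed libraries. Levels are given as RPM, the count of a gene over the count of its library, per 1e+06 counts. The 6 vitellogenins, yolk proteins made by the intestine, took 664514 to 678265 RPM in fasted and 717552 to 732204 RPM in fed libraries. A gene was called when edgeR's quasi-likelihood test on counts scaled by library total gave a false discovery rate (FDR, the Benjamini-Hochberg adjusted p over all 7379 genes tested) under 0.01 and a fold change over 1.5. On this scale the median tested gene stood 2.34-fold higher in fasted intestines, a log2 fold change of 1.23. TMM scaling, which sets the bulk of genes close to no change, lowered that median by 1.07 to 0.16, so the changes below are also given relative to the median gene. Intestine markers were present throughout: none of the 9 listed in the table was at 0 in any library. Of them, 3 were called higher and 4 lower, against 52.9% and 9.97% of all tested genes. With TMM scaling 0 were called higher and 6 lower, against 19.6% and 21.5% of all tested genes. The median log2 fold change of these markers was -0.43 by total counts, -1.66 relative to the median gene. Their summed level was 2830 to 3867 RPM in fasted and 6870 to 8002 RPM in fed libraries, of which cpr-1 alone gave 1959 to 2905 RPM in fasted and 5463 to 6710 RPM in fed libraries. Germline and muscle markers were higher in every fasted library. The 17 germline and oocyte markers summed to 127, 560, 32.5 and 38.8 RPM in fasted replicates 1 to 4, against 1.97 to 8.61 RPM in fed libraries. Body wall muscle markers summed to 1011, 64.2, 22.3 and 1439.6 RPM in fasted replicates 1 to 4, against 9.78 to 13.1 RPM in fed libraries. In dissected tissue, fewer cells of a type and less RNA per cell cannot be told apart.

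Transcripts of most condensin subunits took a larger share of the RNA in fasted intestines. Of the 9 members that passed the filter on low counts, 8 were called higher and 0 lower by edgeR's quasi-likelihood test, where 52.9% of all tested genes were called higher and 9.97% lower. At an FDR under 0.05 with no fold threshold all 9 tested members were higher, and so were 4670 of the 7379 genes tested. Every fasted library lay above every fed library for 8 of these 9 members, and so it did for 58.5% of all tested genes, while 11.1% of all tested genes lay below every fed library in every fasted library. The count of members is thus to be read against a background in which most genes moved the same way. The median log2 fold change of the 9 tested members was 1.91, against 1.23 for all genes; with TMM scaling the medians were 0.82 and 0.16. Among the tested members, 6 lay above the median gene and 3 below it. Genes that were both called higher and above that median made up 44% of all tested genes.

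With TMM scaling only mix-1, dpy-26 and kle-2 were called higher, where the background was 19.6% of tested genes higher and 21.5% lower. DESeq2 with its own size factors also called 3 members higher, against 23.7% of all genes. With the vitellogenins left out of the library size 6 members were called higher, against 44.7% of all genes, and sdc-2 and hcp-6 lost their calls (edgeR adjusted p = 0.0166 and 0.0138). Leaving out fasted replicates 1 and 4, the pair with high muscle markers, left 5 members called against 38.6% of all genes, and smc-4, dpy-28 and sdc-2 lost their calls. Leaving out fasted replicate 2, which held the most germline marker RNA, left 7 against 48.2%. With no filter on low counts 9 of 10 members were called higher, against 24.4% of all 16629 genes with a count. That share includes the genes that the filter removes for low counts. In this setting the median log2 fold change of the members was 2.16, against 1.89 for all genes, a difference of 0.27.

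**Figure D1:**
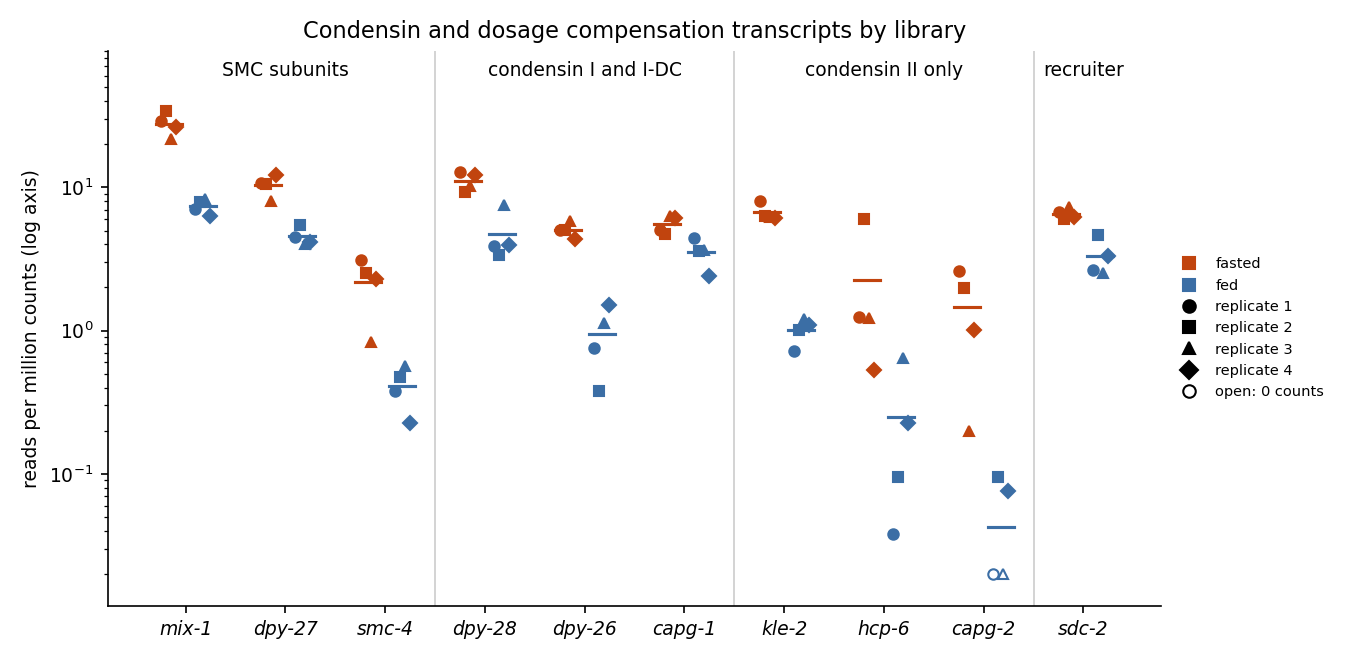
Level of each of the 10 genes in RPM (log axis), with fasted libraries in orange to the left of fed libraries in blue, 1 symbol per library and a bar at the group mean; open symbols at the bottom mark libraries with 0 counts. The 4 fasted libraries sit above the 4 fed libraries for 9 of the 10 genes, and the groups overlap for hcp-6. Of all tested genes, 58.5% have every fasted library above every fed one. Among the 9, capg-2 was not tested and holds 0 to 2 counts per fed library.

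The SMC subunits came first. MIX-1 is the SMC2-type ATPase of all 3 condensins, and its gene lies on chromosome II:10824246-10841424 on the plus strand (coordinates throughout are from the WBcel235 annotation). mix-1 had 29.0, 34.02, 21.7 and 26.4 RPM in fasted libraries, against 7.09, 7.92, 8.29 and 6.33 RPM in fed libraries. The groups did not overlap, and the lowest fasted library was 2.62 times the highest fed one. The group means were 27.8 ± 5.13 RPM in fasted and 7.41 ± 0.874 RPM in fed intestines (SD, n = 4 each). mix-1 rose by a log2 fold change of 1.91 ± 0.18 (SE) in edgeR's quasi-likelihood test (Benjamini-Hochberg adjusted p = 5.81e-06), which is 0.68 above the median gene. It stayed called with TMM scaling, at 0.82 (edgeR adjusted p = 0.00168), and under all 17 alternatives run. Per length, as counts per kilobase of exon and per 1e+06 counts, mix-1 was the most abundant member in both groups, at 6.28 ± 1.16 in fasted and 1.67 ± 0.197 in fed intestines. That level placed it at percentile 68.1 to 74.7 of the tested genes in fasted libraries and at percentile 53.99 to 61.4 in fed libraries.

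DPY-27 is the SMC4-type ATPase found only in condensin I-DC, and it is the subunit that sets this complex apart from condensin I. Its gene is on chromosome III:3813018-3819679 on the minus strand. dpy-27 had 10.8, 10.5, 8.06 and 12.2 RPM in fasted libraries, against 4.51, 5.49, 4.02 and 4.17 RPM in fed libraries. Each fasted library exceeded each fed library. By total counts dpy-27 rose by a log2 fold change of 1.19 ± 0.19 (edgeR adjusted p = 2.45e-04). This lay 0.03 below the median gene, and with TMM scaling the change was 0.10 and was not called (edgeR adjusted p = 0.670). In its rank among tested genes dpy-27 spanned percentiles 41.5 to 48.6 in fasted libraries and 41.0 to 51.7 in fed libraries, which overlap.

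SMC-4, the SMC4-type ATPase of condensins I and II, is encoded on chromosome III:4587501-4593124 on the plus strand. smc-4 had 3.12, 2.53, 0.833 and 2.30 RPM in fasted libraries, against 0.379, 0.477, 0.563 and 0.228 RPM in fed libraries. Fasted replicate 3 was the lowest of its group, at 1.48 times the highest fed library, and the groups did not overlap. The fed values rest on 6 to 14 counts per library. smc-4 rose by a log2 fold change of 2.41 ± 0.47 (edgeR adjusted p = 8.40e-04), 1.18 above the median gene. With TMM scaling the change was 1.33 and did not pass the threshold (edgeR adjusted p = 0.0272).

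Next were the non-SMC subunits shared by condensin I and condensin I-DC. DPY-28 is a HEAT-repeat subunit encoded on chromosome III:10763131-10777076 on the plus strand. dpy-28 had 12.7, 9.25, 10.2 and 12.2 RPM in fasted libraries, against 3.87, 3.39, 7.56 and 3.94 RPM in fed libraries. Fed replicate 3 stood apart from the other fed libraries and was the closest to the fasted group, but the groups did not overlap. dpy-28 rose by a log2 fold change of 1.24 ± 0.27 (edgeR adjusted p = 0.00158), 0.01 above the median gene. With TMM scaling its change was 0.18 and was not called (edgeR adjusted p = 0.543).

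DPY-26, the kleisin of condensins I and I-DC, is encoded on chromosome IV:12445801-12451335 on the minus strand. dpy-26 had 5.02, 5.06, 5.83 and 4.37 RPM in fasted libraries, against 0.759, 0.382, 1.13 and 1.52 RPM in fed libraries. Its fasted values were tightly grouped, and the lowest of them was 2.88 times the highest fed value. dpy-26 rose by a log2 fold change of 2.404 ± 0.35 (edgeR adjusted p = 1.25e-04), 1.175 above the median gene, and was called with TMM scaling as well, at 1.35 (edgeR adjusted p = 0.00618). On the same strand, 84 exon bases are shared with the neighbouring gene C25G4.3.

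CAPG-1 is the other HEAT-repeat subunit of condensins I and I-DC, encoded on chromosome I:7634492-7639785 on the minus strand. capg-1 had 5.06, 4.74, 6.29 and 6.15 RPM in fasted libraries, against 4.44, 3.63, 3.66 and 2.39 RPM in fed libraries. The lowest fasted library was 1.07 times the highest fed library, the smallest gap among the members whose groups did not overlap. It was the 1 tested member not called: the log2 fold change was 0.66 ± 0.23 by total counts (edgeR adjusted p = 0.0211) and, with TMM scaling, turned to -0.41 (edgeR adjusted p = 0.146). Relative to the median gene capg-1 stood at -0.57.

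The remaining subunits occur in condensin II alone. KLE-2 is its kleisin, encoded on chromosome III:7941717-7945593 on the plus strand. kle-2 had 8.08, 6.32, 6.23 and 6.12 RPM in fasted libraries, against 0.721, 1.00, 1.21 and 1.10 RPM in fed libraries. No other member had so wide a gap between the groups, the lowest fasted library being 5.07 times the highest fed one. Its means were 6.69 ± 0.932 RPM in fasted and 1.01 ± 0.209 RPM in fed intestines (SD, n = 4 each). kle-2 rose by a log2 fold change of 2.73 ± 0.23 (edgeR adjusted p = 2.69e-06), 1.497 above the median gene, and by 1.65 with TMM scaling (edgeR adjusted p = 1.02e-04). Per length it ranked at percentile 42.0 to 49.7 of tested genes in fasted libraries, against 17.3 to 24.8 in fed libraries.

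HCP-6, the condensin II HEAT-repeat subunit first known from its role at holocentric chromosomes, is encoded on chromosome I:5165148-5171313 on the plus strand. hcp-6 had 1.25, 6.01, 1.23 and 0.532 RPM in fasted libraries, against 0.038, 0.095, 0.644 and 0.228 RPM in fed libraries. Fasted replicate 2 was far above the rest, fasted replicate 4 lay below fed replicate 3, and only 3 of 4 fasted libraries exceeded all fed ones. The fed values rest on 1 to 16 counts. hcp-6 rose by a log2 fold change of 3.12 ± 0.90 by total counts (edgeR adjusted p = 0.00858), 1.89 above the median gene, and the call was lost in 12 of 17 alternatives, among them those without any 1 of fasted replicates 1, 2 and 3 and fed replicates 1, 2 and 4. Without fasted replicate 2, the library richest in germline markers, its log2 fold change was 1.97 (edgeR adjusted p = 0.0382), without fed replicate 3 it was 4.16 (edgeR adjusted p = 0.00666), and with TMM scaling it was 2.08 (edgeR adjusted p = 0.0636).

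CAPG-2 is the other HEAT-repeat subunit of condensin II, encoded on chromosome V:12271873-12275658 on the plus strand. capg-2 had 80, 50, 6 and 34 counts in fasted libraries, against 0, 2, 0 and 2 counts in fed libraries. All fasted libraries were above all fed ones, although fasted replicate 3 was close to the limit of 3 counts taken here as the floor. It failed the filter on low counts and was not tested. Pooled over libraries, 170 fasted against 4 fed counts gave a ratio of levels of 35.0, with an exact 95% interval of 13.4 to 129.98. That interval takes the counts as independent and leaves out the spread between libraries. All of these counts were even, so they may not be independent and the interval may be too narrow.

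**Figure D2:**
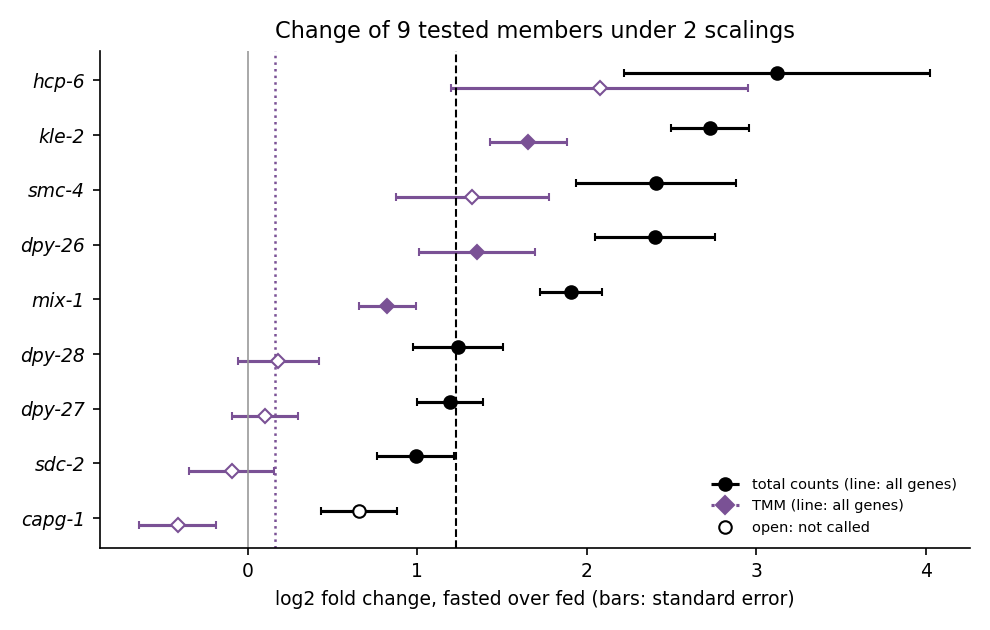
Log2 fold change of fasted over fed intestines for the 9 tested genes, scaled by library totals (black circles) or by TMM (purple diamonds), with bars for 1 standard error; filled symbols were called and vertical lines mark the median of all tested genes on each scale. mix-1, dpy-26 and kle-2 are filled on both scales, whereas capg-1 and sdc-2 lie below 0 with TMM.

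SDC-2 is the hermaphrodite-specific protein that binds recruitment sites on X and loads condensin I-DC there, and its gene is the 1 member that itself lies on X, at X:11522707-11533450 on the plus strand. sdc-2 had 6.70, 6.01, 7.33 and 6.18 RPM in fasted libraries, against 2.65, 4.67, 2.53 and 3.34 RPM in fed libraries. Fed replicate 2 was the highest of its group, and still below each fasted library. sdc-2 rose by a log2 fold change of 0.99 ± 0.23 by total counts (edgeR adjusted p = 0.00239), which is 0.24 below the median gene, and stood at -0.09 with TMM scaling (edgeR adjusted p = 0.769). Of its exon bases, 1181 overlap anr-16 on the opposite strand, a gene not listed in the table; the authors counted reads in the gene's orientation, but the library kit is not stated to keep strand. The opposite-strand exon overlaps of the other members span at most 89 bases.

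Ordered by mean level per kilobase in fasted intestines, mix-1 came first at 6.28, followed by dpy-28 at 2.26 ± 0.337, kle-2 at 2.19 ± 0.306 and dpy-27 at 2.18 ± 0.363 (SD, n = 4). These 3 genes differed from each other by less than their spread. capg-1 and dpy-26 followed, with 1.37 ± 0.191 and 1.26 ± 0.148 per kilobase in fasted intestines, again within their spread of each other. sdc-2 had 0.709 ± 0.0644 per kilobase, and capg-2, smc-4 and hcp-6 closed the order at 0.455 ± 0.335, 0.443 ± 0.196 and 0.421 ± 0.471 per kilobase, 3 values not separable by their spread. In fed intestines dpy-28, dpy-27 and capg-1 stood next to mix-1, at 0.954 ± 0.393, 0.954 ± 0.138 and 0.868 ± 0.208 per kilobase. There kle-2 had 0.330 ± 0.0684 per kilobase and dpy-26 0.236 ± 0.121. The kle-2 level thus did not differ from that of dpy-27 beyond the spread in fasted intestines, and in fed intestines it lay below dpy-27 in each library.

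Grouped by complex, the summed transcripts were higher in each fasted library for all 3 condensins. The 5 subunits of condensin I-DC summed to 62.6, 63.6, 52.1 and 61.4 RPM in fasted libraries, against 20.7, 20.8, 24.7 and 18.4 RPM in fed libraries. Condensin I summed to 51.7 ± 4.91 RPM in fasted and 17.0 ± 2.95 RPM in fed intestines, and condensin II to 40.4 ± 8.99 RPM in fasted and 9.12 ± 1.27 RPM in fed intestines (SD, n = 4 each). mix-1 is counted in each of these sums and gave much of them. The 3 subunits of condensin II alone, without mix-1 and smc-4, summed to 12.0, 14.3, 7.66 and 7.65 RPM in fasted libraries, against 0.759, 1.19, 1.85 and 1.40 RPM in fed libraries. For the 3 non-SMC subunits of condensins I and I-DC the sums were 22.8, 19.04, 22.3 and 22.8 RPM in fasted libraries, against 9.07, 7.39, 12.4 and 7.85 RPM in fed libraries. No sum overlapped between groups, and no test was run on the sums, which follow from the members above. Every fasted library also lay above every fed library for 58.5% of all tested genes, and the median gene stood 2.34-fold higher.

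Dividing each member by mix-1 in the same library gives values that library scaling does not touch. Of 9 such ratios of levels per length, 1 was higher in every fasted library, 2 were lower and 6 overlapped. Of the other 7378 tested genes, 10.4% had a ratio to mix-1 that was higher in every fasted library and 40.7% one that was lower, as mix-1 itself lay 0.68 above the median gene. kle-2 over mix-1 was 0.405, 0.270, 0.416 and 0.336 in fasted libraries, against 0.147, 0.184, 0.211 and 0.252 in fed libraries, and it was the ratio that was higher throughout. dpy-27 over mix-1 was 0.345, 0.288, 0.345 and 0.429 in fasted libraries, against 0.591, 0.643, 0.451 and 0.611 in fed libraries. capg-1 over mix-1 was 0.190, 0.152, 0.316 and 0.253 in fasted libraries, against 0.681, 0.499, 0.481 and 0.411 in fed libraries. A lower ratio to mix-1 was therefore common among all genes, and dpy-27 lay 0.03 below the median gene. The SMC4-type subunits that distinguish condensin I-DC from condensin I gave a dpy-27 to smc-4 ratio of 3.59, 4.33, 10.1 and 5.51 in fasted libraries, against 12.4, 11.9, 7.42 and 19.04 in fed libraries. Fasted replicate 3 placed this ratio inside the fed range, so these groups overlapped. sdc-2 over dpy-27, the recruiter against its cargo, spanned 0.260 to 0.469 in fasted and 0.304 to 0.440 in fed libraries, which also overlap. These ratios are given as a description, with no test.

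**Figure D3:**
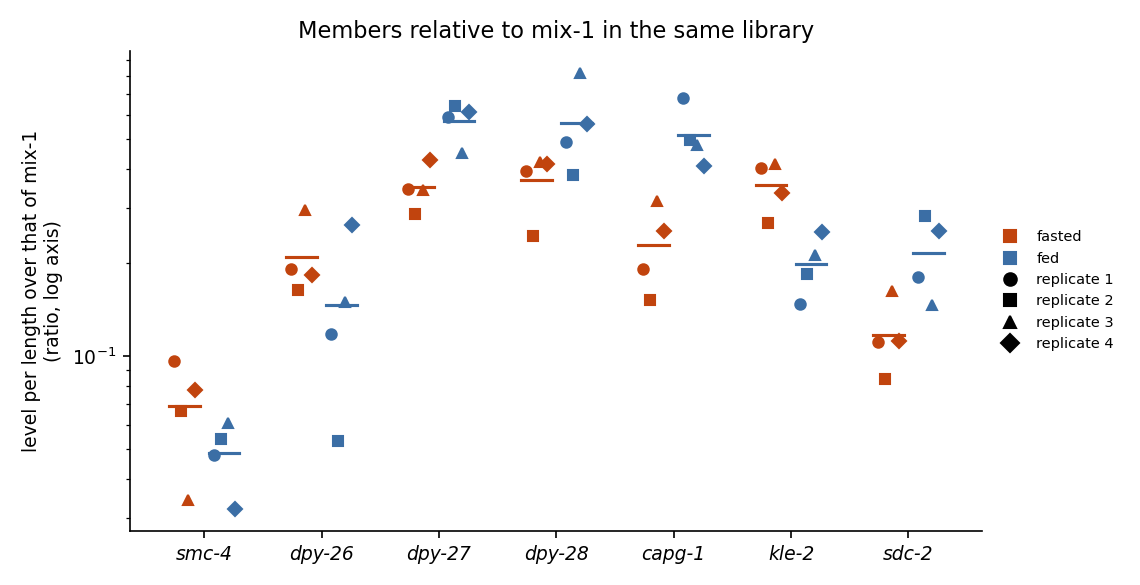
Ratio of the level per length of 7 genes to that of mix-1 in the same library (log axis), with fasted libraries in orange to the left of fed libraries in blue and bars at the group means; hcp-6 and capg-2 are left out for their low counts. kle-2 is higher in every fasted library (0.270 to 0.416 against 0.147 to 0.252), and dpy-27 and capg-1 are lower.

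Condensins are abundant in dividing and meiotic cells, and germline RNA differed between the libraries, so the members were set beside the germline markers. Fasted replicate 2 had 560 RPM of these markers and fasted replicate 3 had 32.5 RPM, of which glh-1, a germline RNA helicase, gave 28.4 RPM. The meiotic axis genes htp-3 and him-3 were at 0 in fasted replicates 1, 3 and 4, and fasted replicates 3 and 4 had 7 and 5 of the 17 markers at 0, against 7 to 9 in fed libraries. hcp-6 was highest in fasted replicate 2, at 6.01 RPM, but had 1.25 and 1.23 RPM in fasted replicates 1 and 3, whose germline markers summed to 127 and 32.5 RPM. mix-1 had 29.0, 34.02, 21.7 and 26.4 RPM in fasted replicates 1 to 4. The germline markers there summed to 127, 560, 32.5 and 38.8 RPM, which ranks the libraries in the same order. In the same libraries kle-2 had 8.08, 6.32, 6.23 and 6.12 RPM. In fasted replicate 3, the library with the least germline, muscle and pharynx marker RNA of its group, mix-1, kle-2 and dpy-26 were at 21.7, 6.23 and 5.83 RPM, each above every fed library. Germline and muscle markers in that library summed to 32.5 and 22.3 RPM, still above the fed maxima of 8.61 and 13.1 RPM. mix-1, dpy-27, smc-4 and capg-2 each had their lowest fasted level in fasted replicate 3, at 21.7, 8.06, 0.833 and 0.200 RPM. dpy-26, capg-1 and sdc-2 had their highest there, at 5.83, 6.29 and 7.33 RPM. The part of other tissues in these levels was not tested.

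**Figure D4:**
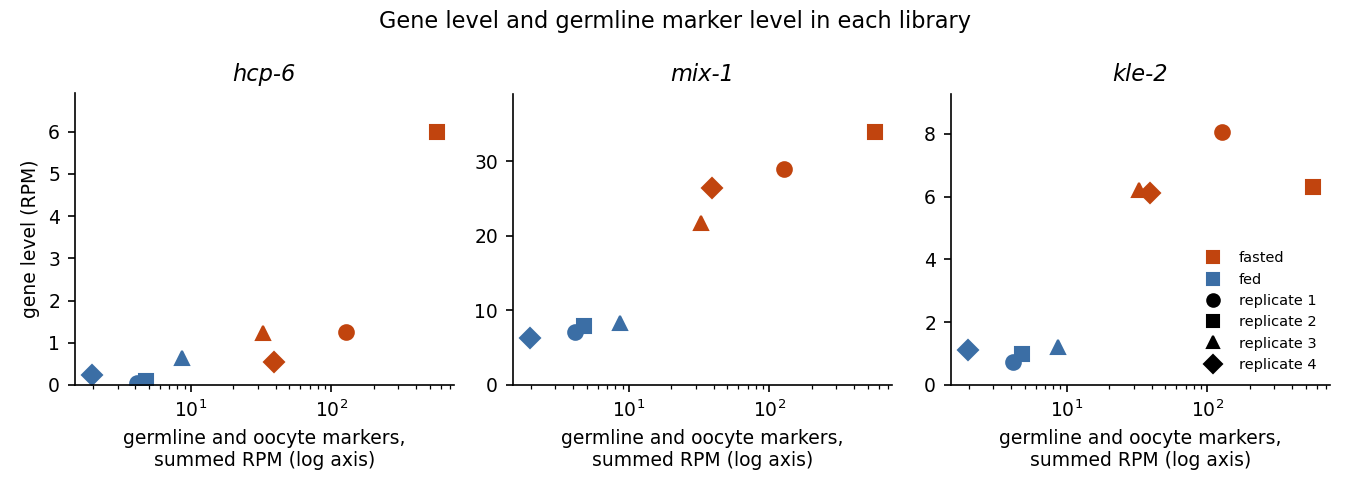
Level of hcp-6, mix-1 and kle-2 (RPM) against the summed level of 17 germline and oocyte markers (RPM, log axis), 1 symbol per library, with fasted libraries in orange and fed libraries in blue. hcp-6 and mix-1 are highest in fasted replicate 2, which has 560 RPM of the markers, while kle-2 has 6.12 to 8.08 RPM in all 4 fasted libraries.

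Other genes of dosage compensation and of the X signal had a median change near that of all genes. Of 13 listed, 7 were tested, 3 were called higher and 0 lower, against 52.9% and 9.97% of all genes, and the median log2 fold change of the tested ones was 1.38, against 1.23 for all genes. DPY-21, a histone demethylase that works with condensin I-DC on X, had 19.9, 20.2, 22.5 and 22.2 RPM in fasted libraries, against 7.62, 5.15, 6.80 and 5.88 RPM in fed libraries. dpy-21 rose by a log2 fold change of 1.74 ± 0.17 (edgeR adjusted p = 6.57e-06), 0.51 above the median gene, and it was the 1 gene of this list also called with TMM scaling, at 0.67. dpy-30, whose product also serves a histone methyltransferase complex, rose by 1.61 ± 0.35 on the log2 scale (edgeR adjusted p = 0.00162), and sdc-3, which helps SDC-2 to load the complex, rose by 1.25 ± 0.30 (edgeR adjusted p = 0.00295). These lay 0.39 and 0.02 above the median gene, and with TMM scaling the log2 fold changes were 0.54 and 0.19 and were not called. Of the male-determining genes, her-1 had no count in any library and xol-1 at most 2.

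Cohesins and the SMC-5/6 complex are the other SMC machines of the nucleus. Of 14 genes, 11 were tested, 8 were called higher and 1 lower, against 52.9% and 9.97% of all genes, with a median log2 fold change of 2.05, against 1.23 for all genes. TMM scaling left 3 higher, among them smc-6, and 1 lower, against 19.6% and 21.5% of all genes. smc-6 had the largest change, 3.77 ± 0.60 on the log2 scale (edgeR adjusted p = 2.08e-04), followed by coh-4, which encodes a meiotic kleisin, at 3.26 ± 0.69 (edgeR adjusted p = 0.00123). They lay 2.54 and 2.03 above the median gene. coh-4 rests on 63 fasted against 5 fed counts, a ratio of 10.4 with a 95% counting interval of 4.22 to 33.1. The smallest changes among called genes were those of scc-2 and mau-2, which encode the cohesin loader. scc-2 rose by a log2 fold change of 1.57 ± 0.29 (edgeR adjusted p = 6.10e-04), 0.34 above the median gene. mau-2 had 0.361, 0.553, 0.466 and 0.591 RPM in fasted libraries, against 1.82, 1.91, 1.25 and 0.569 RPM in fed libraries. Fed replicate 4 fell inside the fasted range, and by total counts mau-2 fell by 1.48 on the log2 scale, -2.71 relative to the median gene (edgeR adjusted p = 0.00997). That call was lost when any 1 library other than fed replicate 4 was left out (edgeR adjusted p up to 0.0354). With TMM scaling mau-2 was the 1 gene called lower, at -2.56 (edgeR adjusted p = 5.28e-04).

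Partners of condensin on mitotic chromosomes were scarce, and 6 of 12 passed the filter on low counts. Of these, 4 were called higher and 0 lower, against 52.9% and 9.97% of all genes, and their median log2 fold change was 2.53, against 1.23 for all genes. top-2, encoding topoisomerase II, had 9.69, 9.56, 6.56 and 6.80 RPM in fasted libraries, against 1.14, 0.954, 1.53 and 1.29 RPM in fed libraries. It rose by a log2 fold change of 2.72 ± 0.24 (edgeR adjusted p = 3.43e-06) and was the 1 partner called with TMM scaling, at 1.65, against 19.6% of all genes. cyb-1, a B-type cyclin, rose by 3.41 ± 0.72 on the log2 scale (edgeR adjusted p = 0.00135), and hcp-4, a centromere protein, by 2.35 ± 0.38 (edgeR adjusted p = 2.61e-04). Relative to the median gene top-2, cyb-1 and hcp-4 stood at 1.49, 2.18 and 1.12. knl-2, needed to load centromeric histone, rose by 1.79 ± 0.52 (edgeR adjusted p = 0.00900), with groups that overlapped: it had 12.9, 23.1, 3.497 and 5.44 RPM in fasted libraries, against 3.87, 2.10, 3.902 and 3.11 RPM in fed libraries. The knl-2 call was lost without any 1 of fasted replicates 1 and 2 and fed replicates 1 to 4 (edgeR adjusted p up to 0.0345), and that of sdc-3 without fed replicate 1 or 2 (edgeR adjusted p = 0.0113 and 0.0101). Without fasted replicate 2, 48.2% of all tested genes were called higher. In the other dosage compensation, cohesin and partner lists 3 of 7, 6 of 11 and 3 of 6 tested genes were called higher.

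Because condensin I-DC acts on X, the level of X-linked genes was compared with that of autosomal genes within each library. The genes compared were those that passed the filter on low counts. A gene can pass it through 1 group alone, and the part of this choice of genes in the comparison was not tested. The median log2(RPM + 0.5) of 925 tested X-linked genes minus that of 6348 tested autosomal genes was -0.08, -0.07, -0.04 and 0 in fasted libraries, against 0.47, 0.52, 0.36 and 0.46 in fed libraries. Among these tested genes, the X-linked ones thus stood above the autosomal ones in every fed library and level with them or slightly below in fasted ones. The means were -0.05 ± 0.04 in fasted and 0.45 ± 0.07 in fed intestines (SD, n = 4 each), a difference of -0.50 on the log2 scale. A two-sided exact permutation test gave p = 0.0286, the smallest that 70 relabellings allow, and 0.0286 after Benjamini-Hochberg adjustment over 2 measures. Within 5 bins of mean level, a comparison chosen after seeing the data, the groups did not overlap in any bin and the mean difference was -0.39 (exact permutation p = 0.0286). With a mean of at least 10 or at least 100 counts as the filter the difference was -0.44 and -0.30 (exact permutation p = 0.0286 each). Pseudocounts of 0.1 and 2 RPM gave -0.59 and -0.33 (exact permutation p = 0.0286 each). Over all 16629 genes with a count, with no filter, the difference was -0.08 and the groups were not separated (exact permutation p = 0.143). Of those genes only 8807 to 9124 had a count in each fed library, and the rest stood at the pseudocount there.

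X-linked genes outside the vitellogenins held 14.1, 13.7, 13.9 and 14.4% of the counts on the nuclear chromosomes in fasted libraries, against 18.2, 18.9, 18.3 and 18.9% in fed libraries. The means were 14.01 ± 0.324% in fasted and 18.6 ± 0.389% in fed intestines (SD, n = 4 each), and the groups did not overlap (exact permutation p = 0.0286, two-sided). With the vitellogenins kept, the difference turned to 3.895 percentage points higher in fasted intestines. Most of these 6 genes are X-linked. Of them 1 was called higher and 4 lower, against 52.9% and 9.97% of all tested genes, and their summed level was lower in fasted libraries. The part of each vitellogenin in this change of sign was not separated. Gene by gene, the median log2 fold change was 0.84 on X and 1.30 on the autosomes, where single chromosomes spanned 1.08 on V to 1.417 on I. On X 40.8% of tested genes were called higher and 16.2% lower, and on the autosomes 54.8% were called higher and 8.95% lower. With TMM scaling 13.6% of tested genes on X were called higher and 29.5% lower, and on the autosomes 20.5% were called higher and 20.2% lower. Germline and muscle markers were higher in the same fasted libraries, and their part in the shift of X was not tested. In fasted replicate 3, where these markers were lowest of the fasted group but still above every fed library, X minus autosomes was -0.04. Without fasted replicates 1 and 4 the difference between groups was -0.51 (exact permutation p = 0.133, the smallest that design allows). That comparison kept fasted replicate 2, which held the most germline marker RNA.

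**Figure D5:**
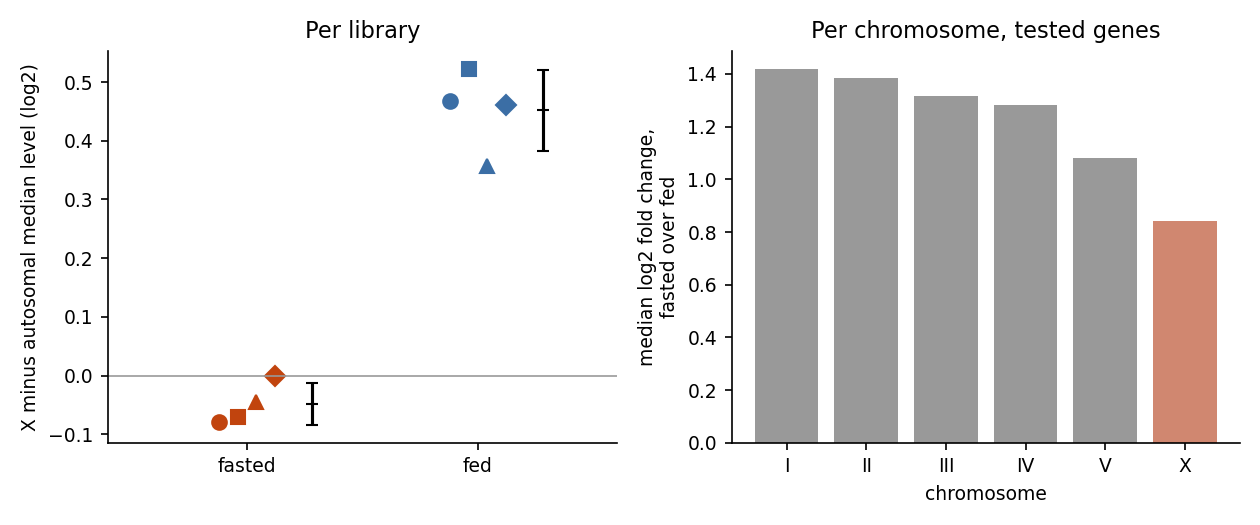
Left, the median level of X-linked genes minus that of autosomal genes in each library (log2), with fasted to the left of fed and a bar for the mean and SD; right, the median log2 fold change of fasted over fed intestines for the tested genes of each chromosome. The 4 fasted libraries lie between -0.08 and 0 and the 4 fed libraries between 0.36 and 0.52, and X has the lowest median change, 0.84.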

How the data were processed

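The authors trimmed adaptors with Trimmomatic, aligned reads to the ce10 genome with QuasR, and counted unique reads within WormBase exons in the orientation of the gene. The deposited table holds raw counts per gene for 8 libraries, and a column of another kind, the authors' summed exon width in bases, which was used here for levels per kilobase. Low counts were often even (64.1 to 66.1% of genes with 1 to 20 counts in fasted and 72.0 to 73.9% in fed libraries), so they may not be independent molecules. The counting intervals take them as independent, so they may be too narrow, and they leave out the spread between libraries. Gene names and WBcel235 positions came from Ensembl release 115, and 19182 of 20392 identifiers had a symbol.

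Counts were tested with edgeR 4.0.16 (R 4.3.3; filterByExpr with a minimum count of 10, library size equal to the total count, quasi-likelihood test, Benjamini-Hochberg over 7379 genes), comparing the 2 groups alone. The study names edgeR, these thresholds and scaling by library totals. Genes were called at an FDR below 0.01 with a change of more than 1.5-fold. DESeq2 1.42.0, TMM factors, other filters, left-out libraries and a replicate block were alternatives. X-linked and autosomal medians used a pseudocount of 0.5 RPM. The 10 genes were named in all cases. Of the further lists, every called gene was named, or the 2 largest and 2 smallest changes where more than 4 were called. Members and lists were chosen with earlier results of these data known. No 2 libraries agreed within sampling noise. Somatic gonad, pharynx and neuron markers summed to 1.10 to 14.6, 0.833 to 370 and 11.8 to 52.8 RPM in fasted libraries, against 0.080 to 0.228, 0.161 to 0.531 and 7.51 to 10.1 RPM in fed libraries. Hypodermis and sperm markers summed to 1.40 to 8.54 and 0.133 to 0.672 RPM in fasted, against 0.764 to 3.39 and 0.048 to 0.152 RPM in fed libraries.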

Additional observations from a re-analysis of the deposited data

Results flagged for a closer look

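In 3 of 24 groups of 4 values checked, 1 library stood apart from the others by more than Dixon's 95% critical value, where chance gives about 1 in 20. For hcp-6 in fasted intestines, replicate 2 with 6.01 RPM was far above the next library, and the gap was 0.869 of the group's range. For kle-2 in fasted intestines, replicate 1 with 8.08 RPM stood above the other fasted libraries at 6.12 to 6.32 RPM, with a gap of 0.895 of the range. For dpy-28 in fed intestines, replicate 3 with 7.56 RPM stood above the other fed libraries at 3.39 to 3.94 RPM, with a gap of 0.867 of the range.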

How the results depend on the processing

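The count of members called higher was 3 with TMM scaling, 3 by DESeq2 with its own size factors, 5 without fasted replicates 1 and 4 together, 6 with the vitellogenins left out of the library size, and 7 to 9 when each library was left out in turn, against 8 as reported. In the same order, 19.6%, 23.7%, 38.6%, 44.7% and 44.3 to 50% of all tested genes were called higher, against 52.9% as reported. No member was called lower under any alternative run. capg-2 was called higher in the 7 alternatives whose filter let it be tested. mix-1, dpy-26 and kle-2 kept their calls in all 17 alternatives. capg-1 turned to -0.41 with TMM scaling, -0.42 by DESeq2 and -0.40 with the block and TMM, and sdc-2 to -0.0945, -0.102 and -0.0500 under the same 3 settings, all on the log2 scale; both follow the shift of all genes by 1.07 between the scalings. Called genes were 84.1% higher by total counts and 47.7% higher with TMM, with 3901 and 1448 genes called higher and 736 and 1585 called lower. DESeq2 with its own size factors called 1748 higher and 1754 lower.

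The study's methods describe part of the collected adults dissected as fed and the rest fasted, so same-numbered pools may share a culture. The labels do not state this. Same-numbered fasted and fed libraries correlated at 0.040, 0.086, 0.068 and 0.148 in their deviations, and not every library correlated best with its own number. These correlations do not settle whether the numbers pair the libraries. With the replicate number as a block 7 members were called higher, against 48.5% of all genes, and 3 with the block and TMM scaling, against 17.8%. Under the block, sign flips within pairs gave the X differences of -0.50 and -4.57 a p of 0.125, the smallest that 4 pairs allow.

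X minus autosomes ranged from -0.53 to -0.48 when each library was left out, and the X share from -4.71 to -4.44 percentage points; p was then 0.0571, the smallest that 3 against 4 libraries allow. Without fasted replicates 1 and 4 these differences were -0.51 and -4.81 (exact permutation p = 0.133, again the smallest possible). With no filter X minus autosomes was -0.0767 (exact permutation p = 0.143), and with no gene left out the X share difference was 3.895. Depth limits smc-4, hcp-6 and capg-2, whose fed libraries hold at most 16 counts each.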
